A study of Mus musculus with 2 samples.

Results

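AMP-activated protein kinase (AMPK) subunits and the Rab GTPase-activating proteins TBC1D1 and TBC1D4 were followed in single mouse myofibers. They came from the FDB (flexor digitorum brevis), a mostly fast-twitch muscle of the hind foot that flexes the toes. The members were chosen by name: Prkaa1 and Prkaa2 (alpha), Prkab1 and Prkab2 (beta), Prkag1, Prkag2 and Prkag3 (gamma), Tbc1d1 and Tbc1d4, 9 of the 35163 genes in the table. No cutoff on measured values was used, but earlier results of these data were known when they were chosen. AMPK is a trimer of 1 alpha, 1 beta and 1 gamma subunit that is activated when the cell's AMP and ADP rise relative to ATP, as in contracting muscle. The alpha subunit carries the kinase, the beta subunit joins the complex and binds glycogen, and the gamma subunit binds the adenine nucleotides. In skeletal muscle AMPK and the insulin-activated kinase AKT phosphorylate TBC1D1 and TBC1D4, which hold GLUT4 glucose transporter vesicles inside the cell until they are phosphorylated.

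By the deposited design text and labels, all cells came from 1 untreated C57BL/6J mouse over 3 months of age, so no replicate exists for any comparison and no test across cells was made. The study's methods describe its animals as male and also name DBA2 mice, a strain that the labels of these samples do not give. The FDB was digested with collagenase and single myofibers were sorted on a large particle flow sorter into plates, either as whole myocytes or as fragments of cut muscle meant to imitate a biopsy. Of 763 cells, 171 were kept because over 5000 genes were detected in them and under 20% of their counts were mitochondrial. The other 592 were left out. Each kept cell was classed by the largest of Myh1, Myh2, Myh4, Myh7 and Myh8, the myosin heavy chains that define fiber types. This gave 117 fast 2X (Myh1), 51 fast 2A (Myh2), 2 slow (Myh7) and 1 fast 2B (Myh4) myofibers, and 7 of them had their leading myosins less than 10 percentage points apart. Of the kept cells 3 were fragments, all of them classed as fast 2X.

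The kept cells held 51923865 UMIs (unique molecular identifiers, 1 per captured RNA molecule), with a median of 255726 per fast 2X cell and 206510 per fast 2A cell. The median mitochondrial share was 5.01% in fast 2X and 6.96% in fast 2A. All 8 myofiber markers checked (Acta1, Ckm, Ttn, Neb, Ryr1, Cacna1s, Mylpf and Tnnt3) were detected and together summed to 136512 CPM in the kept cells, where CPM is a gene's UMIs scaled to a library total of 1e6. No cell barcode occurred in both sequencing lanes. Levels are CPM of the counts summed over cells, with exact 95% Poisson limits, which cover counting error only and not differences between mice.

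The subunit genes are paralogs whose coding sequences resemble each other, so it matters whether reads could be told apart. The stretches shown here were taken from GENCODE M21 transcripts on GRCm38. For the alpha subunits the stretch is the activation segment of the kinase domain (Prkaa1 at chr15:5168706-5170002 on the plus strand, Prkaa2 at chr4:105049348-105051208 on the minus strand, each in 2 coding exons). This segment holds the threonine that upstream kinases phosphorylate. It was picked by its sequence motif, not by a search for the stretch most alike. Capitals mark the bases that differ.
Prkaa1: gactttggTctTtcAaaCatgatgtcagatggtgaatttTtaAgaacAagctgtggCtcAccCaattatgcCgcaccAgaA
Prkaa2: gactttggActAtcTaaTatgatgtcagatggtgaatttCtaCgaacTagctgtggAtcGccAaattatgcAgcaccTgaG

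Both segments have 27 codons for the same 27 residues, yet 13 of the 81 bases differ. The longest run without a difference was 21 bases, shorter than the 66 bases of a read. The gamma subunits were compared in the stretch of 30 codons with most residues in common (Prkag1 at chr15:98815545-98815737, Prkag2 at chr5:24878753-24880762 and Prkag3 at chr1:74745745-74745948, all on the minus strand and in 2 coding exons). Capitals mark positions where the 3 genes are not all the same.
Prkag1: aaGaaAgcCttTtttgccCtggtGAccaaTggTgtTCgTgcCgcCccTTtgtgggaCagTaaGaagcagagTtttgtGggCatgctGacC
Prkag2: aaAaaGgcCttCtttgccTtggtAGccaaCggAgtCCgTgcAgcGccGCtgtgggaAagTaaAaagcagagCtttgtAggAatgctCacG
Prkag3: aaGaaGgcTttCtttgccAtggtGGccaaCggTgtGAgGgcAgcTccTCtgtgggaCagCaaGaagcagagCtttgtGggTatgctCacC

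In this gamma stretch 27 of 30 residues were the same in the 3 proteins, while 24 of 90 bases differed and no identical run passed 8 bases. Across all annotated coding transcripts, no stretch of 66 bases of a member occurred in another member. Antisense or overlapping genes that were counted held fewer counts than the members, at most 87 for Gm14508 against 448 for Prkab1 and 71 for B130046B21Rik against 1973 for Prkag1. Genes overlapping on the same strand, Gm43721 and Gm6044 for Tbc1d1 and Gm34417 for Tbc1d4, were not among the counted genes. Whether the counting used strand was not stated in the sources used here.

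All 9 genes were detected in the kept myofibers, at levels from 280 CPM for Tbc1d1 (limits 275 to 284) to 8.63 CPM for Prkab1 (7.85 to 9.47). UMIs count captured molecules, so CPM itself compares the genes. After Tbc1d1 came Prkab2 (170 CPM), Prkaa2 (140), Prkag3 (104), Prkag2 (46.0) and Prkag1 (38.0). As an alternative scale, CPM was also divided by the length of the longest coding transcript in kilobases. On that scale Tbc1d1 led with 43.2 CPM per kb, followed by Prkag3 with 36.6, Prkab2 with 34.0, Prkag1 with 23.0, Prkaa2 with 17.5 and Prkag2 with 13.8. Prkab1 (4.13), Tbc1d4 (3.95) and Prkaa1 (2.79 CPM per kb) formed the low end, and the counting limits of Prkab1 and Tbc1d4 overlapped there. Each family thus had 1 gene well above its paralogs except gamma, where Prkag1 and Prkag2 were also sizeable.

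**Figure D1:**
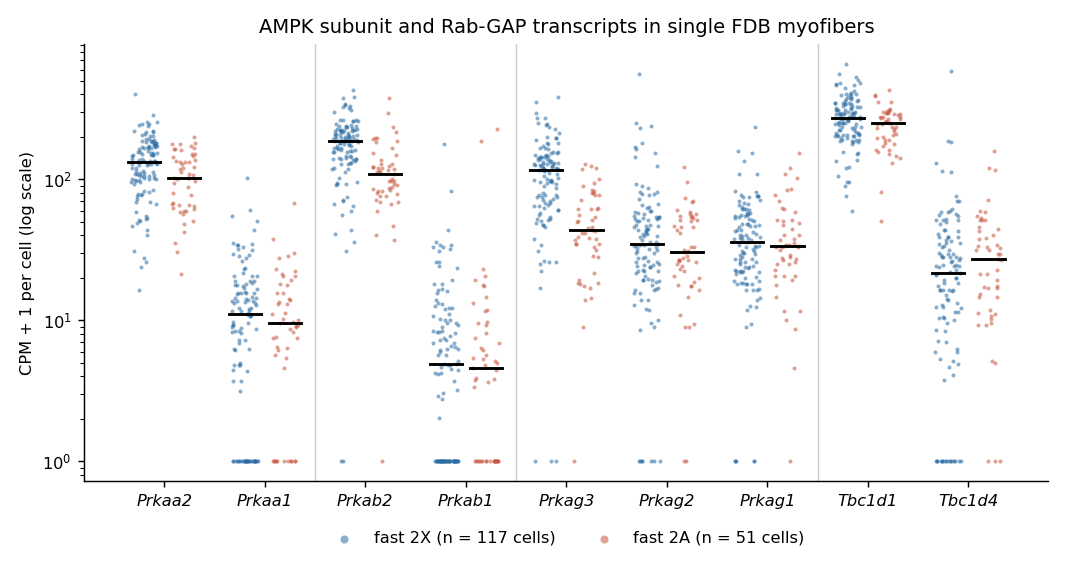
Each point is 1 myofiber, blue for fast 2X (n = 117) and red for fast 2A (n = 51), and the vertical log axis is CPM + 1 with cells at 0 drawn at the bottom. Black bars are medians over cells: they lie at 116 CPM in fast 2X and 42.7 CPM in fast 2A for Prkag3, while for Prkag1 they lie at 34.7 and 32.4 CPM.

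Between the 2 main fiber classes, Prkag3 stood apart. Its CPM was 2.49-fold lower in fast 2A than in fast 2X, Prkab2 was 1.54-fold lower, and no member was 1.5-fold higher in fast 2A. Among the 15692 genes with at least 100 summed counts in the 2 classes, 14.2% were at least 1.5-fold lower in fast 2A and 4.14% at least 1.5-fold higher, and the median log2 ratio of fast 2A over fast 2X was -0.12. The 2 of 9 members past 1.5-fold downward have to be read against that 14.2%.

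Prkaa2, the alpha-2 catalytic subunit that dominates in muscle, lies on chromosome 4 (105029874 to 105109890, minus strand). Per cell it ranged in fast 2X from 15.4 through a median of 131 to 403 CPM, and in fast 2A from 20.2 through 101 to 200 CPM. The classes overlapped broadly, with 18 of 51 fast 2A cells above the fast 2X median. Summed over cells it was 148 CPM in fast 2X and 115 CPM in fast 2A, a log2 ratio of -0.36 (limits -0.45 to -0.28), and the ratio was below 0 on 6 of the 7 plates that had at least 3 cells of each class.

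Prkaa1, the alpha-1 catalytic subunit found in most tissues (chromosome 15, 5143861 to 5181899, plus strand), was an order of magnitude rarer. Its per-cell values ran in fast 2X from 0 through 10.0 to 101.5 CPM and in fast 2A from 0 through 8.57 to 66.5 CPM. The class sums were 13.5 and 11.2 CPM, and the log2 ratio of -0.27 had limits from -0.56 to 0.01 that include no difference. Its sign also differed between lanes, at 0.21 in lane 1 and -0.55 in lane 2.

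The beta subunits were almost all Prkab2, which encodes the beta-2 scaffold (chromosome 3, 97658193 to 97673812, plus strand). It ranged per cell from 0 through 186 to 427 CPM in fast 2X and from 0 through 109 to 378 CPM in fast 2A. The bulk of the classes lay apart, since 8 of 51 fast 2A cells passed the fast 2X median. The sums were 187 CPM (182 to 191) and 121 CPM (115 to 128), a log2 ratio of -0.62 (-0.70 to -0.54), below 0 on 7 of 7 plates with a range from -1.35 to -0.18. This call sat near its threshold: with TMM scaling the log2 ratio was -0.51, with mitochondrial and the most abundant sarcomeric genes taken out of the totals -0.57, and without plate 705 also -0.51, all short of 1.5-fold.

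Prkab1, the beta-1 paralog (chromosome 5, 116013586 to 116024508, minus strand), was at 9.16 CPM in fast 2X and 6.89 CPM in fast 2A, a log2 ratio of -0.41 (-0.78 to -0.06). A few cells carried much of it. In fast 2A the highest cell reached 226 CPM against a median of 3.604 CPM, and 18.3% of the class's 82 counts came from the cell with most counts. Without the cell of highest CPM in each class the log2 ratio was -0.67, whereas with every cell weighted equally it was 0.49, so no direction is given for Prkab1.

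Prkag3 encodes the gamma-3 subunit, known as the gamma isoform of fast glycolytic muscle (chromosome 1, 74738922 to 74749221, minus strand). In fast 2X it ranged from 0 through a median of 116 to 381 CPM, and in fast 2A from 0 through 42.7 to 128 CPM. The ranges overlapped, but 4 of 51 fast 2A cells passed the fast 2X median, and 12 of 117 fast 2X cells were under the fast 2A median. The sums were 121 CPM (118 to 125) in fast 2X and 48.8 CPM (44.9 to 52.9) in fast 2A. The log2 ratio was -1.32 (-1.44 to -1.19), in the lowest 1.78% of the 15692 genes.

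The difference in Prkag3 had the same direction in every batch. It was -1.38 in lane 1 and -1.23 in lane 2. On the 7 plates it ran from -1.67 to -0.84, for example 42.8 CPM in 10 fast 2A cells against 135 CPM in 6 fast 2X cells on plate 705, and 59.4 CPM in 4 against 106 CPM in 17 cells on plate 712. Over the 23 alternatives that do not split by plate the ratio stayed between -1.44 and -1.20.

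Prkag1, the widely expressed gamma-1 subunit (chromosome 15, 98812797 to 98831521, minus strand), was at 37.9 CPM in fast 2X and 38.2 CPM in fast 2A. Per cell it ran from 0 through 34.7 to 233 CPM in fast 2X and from 0 through 32.4 to 153 CPM in fast 2A, an overlap of nearly the whole range. Its log2 ratio of 0.01 had limits of -0.14 to 0.16, and the plates were divided, 4 below 0 and 3 above. Prkag2, the gamma-2 subunit known from inherited cardiomyopathy (chromosome 5, 24862744 to 25100642, minus strand), was at 48.8 CPM in fast 2X and 36.5 CPM in fast 2A. Its per-cell values ran from 0 through 33.6 to 558 CPM and from 0 through 29.3 to 122 CPM. Its log2 ratio was -0.42 (-0.57 to -0.27), below 0 on 7 of 7 plates from -0.83 to -0.05. The Prkag2 level differed between lanes 1 and 2, at 33.9 and 60.9 CPM in fast 2X and 26.6 and 49.7 CPM in fast 2A. Within those lanes its log2 ratio was -0.35 and -0.29. The gamma genes were therefore unlike each other: Prkag3 was lower in fast 2A by more than 2-fold, Prkag2 by 1.34-fold, and the limits of Prkag1 include no difference.

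Tbc1d1 (chromosome 5, 64156305 to 64351486, plus strand) was the most abundant member in both classes. It ranged from 58.2 through 273 to 658 CPM in fast 2X and from 49.3 through 248 to 432 CPM in fast 2A. The summed levels of 293 and 242 CPM gave a log2 ratio of -0.27 (-0.33 to -0.21), below 0 on 6 of 7 plates. Against the median of all genes of -0.12 this is a small difference.

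Tbc1d4, also called AS160 (chromosome 14, 101442360 to 101609191, minus strand), was the one member with a higher sum in fast 2A beyond its counting limits, 31.1 against 24.1 CPM. Per cell it ran from 0 through 20.6 to 582 CPM in fast 2X and from 0 through 26.2 to 158 CPM in fast 2A. The log2 ratio was 0.37 (0.19 to 0.54), above 0 on 5 of 7 plates. That value depended on how cells were weighted. With each cell given equal weight the log2 ratio was -0.0045, and with each cell thinned to 28827 UMIs it was -0.02. Both values include the fast 2X cell at 582 CPM at the same weight as any other. The 3 kept fragments, all in fast 2X, were at 117 CPM (80.3 to 164) for Tbc1d4, against 25.1 CPM in the kept whole myofibers. Of their 33 counts, 69.7% came from 1 fragment. The medians over cells, 20.6 CPM in fast 2X and 26.2 CPM in fast 2A, went in the direction of the sums. Within fast 2X, Tbc1d4 was lower in deeper cells, from 45.9 CPM in the 39 shallowest cells through 24.0 in the middle to 21.7 CPM in the 39 deepest, and part of the shallow end was 1 cell at 582 CPM. The part of depth in the class difference was not tested.

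**Figure D2:**
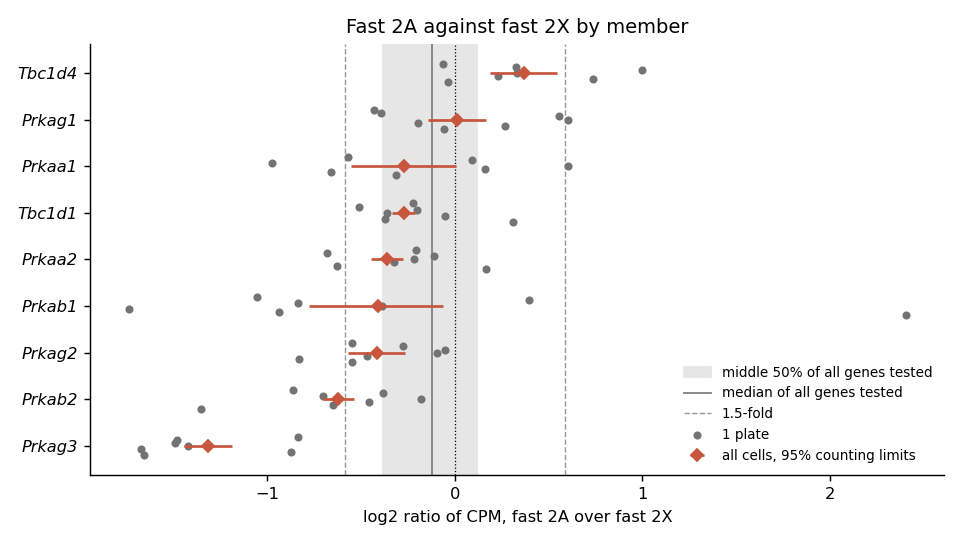
The horizontal axis is the log2 ratio of CPM in fast 2A over fast 2X. Red diamonds with bars are all cells with 95% counting limits, grey points are single plates with at least 3 cells of each class, and the grey band holds the middle 50% of the 15692 genes (-0.38 to 0.12): Prkag3 at -1.32 and all of its plates lie outside it.

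Other cell types were looked for by their markers, since attached cells could differ between classes. Of 6 endothelial markers, 2 were at least 1.5-fold lower in fast 2A, Emcn at 2.69 against 5.77 CPM and Cdh5 at 5.04 against 7.84 CPM. The list summed to 140 CPM in fast 2X and 133 CPM in fast 2A, most of it Tek at 90.9 and 90.3 CPM. Of 5 smooth muscle and pericyte markers with enough counts, 4 were at least 1.5-fold lower in fast 2A, and the list summed to 57.99 and 32.0 CPM with single cells from 0 to 10636 CPM in fast 2X and 0 to 628 CPM in fast 2A. The median over cells was 30.1 and 31.1 CPM. Both tested blood markers were lower in fast 2A as well, and none of these lists had a gene at 0 over the kept cells. Their part in the member ratios was not tested.

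Isoform shares put the same counts within each family. Prkaa2 held 91.5% of alpha counts in the kept cells (90.9 to 92.1), 91.7% in fast 2X and 91.2% in fast 2A. Prkab2 held 95.2% of beta counts (94.7 to 95.6), 95.3% in fast 2X and 94.6% in fast 2A. In both families the counting limits of the classes overlapped, and the plates of the classes overlapped, for Prkaa2 from 85.7% to 95.1% in fast 2X and from 87.0% to 95.2% in fast 2A.

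Per transcript length the leading shares were lower, at 86.3% for Prkaa2 and 89.2% for Prkab2, because both have longer transcripts than their paralogs (7969 against 4655 bases and 5006 against 2089 bases). Among the 101 cells with at least 20 alpha counts, Prkaa2 was the larger or tied in 101, and among 113 cells with at least 20 beta counts Prkab2 was the larger in 112. The dominance of alpha-2 and beta-2 transcripts was therefore a property of nearly every myofiber with enough counts to show it.

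The gamma family was split 3 ways and its split differed by class. In fast 2X, Prkag3 held 58.4% of 8156 gamma counts (57.3 to 59.4), Prkag2 23.4% and Prkag1 18.2%. The order of Prkag2 and Prkag1 there differed by lane, with 592 against 633 counts in lane 1 and 1320 against 852 in lane 2. Over all kept cells Prkag2 held 19.4% of gamma counts in lane 1 and 28.3% in lane 2. In fast 2A, Prkag3 held 39.5% of 1471 counts (37.0 to 42.1), Prkag1 30.9% and Prkag2 29.6%. By plate, the Prkag3 share was 52.5% to 66.8% in fast 2X on 8 plates and 30.9% to 48.1% in fast 2A on 7 plates, with no overlap between the classes.

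Per transcript length, Prkag1 moved ahead of Prkag2 in all kept cells (31.3% against 18.8%, with Prkag3 at 49.9%). In fast 2A it then also passed Prkag3, at 45.1% against 33.6%, while in fast 2X Prkag3 led either way (53.3% per length). Each UMI stands for a captured molecule whatever its length. The undivided shares therefore compare molecules, and by them Prkag3 led in the summed fast 2A cells. That lead did not hold on every plate. In fast 2A, Prkag1 was larger on plate 708 (40.1% against 37.6% for Prkag3). Prkag2 was larger on plate 709 (37.4% against 30.9%) and on plate 711 (38.9% against 37.4%). In single cells with at least 20 gamma counts, Prkag3 was the largest or tied in 72 of 88 fast 2X cells and 16 of 31 fast 2A cells. The per-cell share ranged from 3.85% to 88.2% in fast 2X and from 11.8% to 68.0% in fast 2A.

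The whole gamma family was at 208 CPM in fast 2X and 124 CPM in fast 2A, the beta family at 196 and 128 CPM, and the alpha family at 162 and 127 CPM. TBC1D1 and TBC1D4 transcripts together were at 317 and 273 CPM. Tbc1d1 held 92.4% of that pair in fast 2X (91.9 to 92.9) and 88.6% in fast 2A (87.5 to 89.7), lower in fast 2A on 6 of 7 plates, and the pair's shares did not depend on length because their transcripts are nearly equally long (6471 and 6483 bases).

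**Figure D3:**
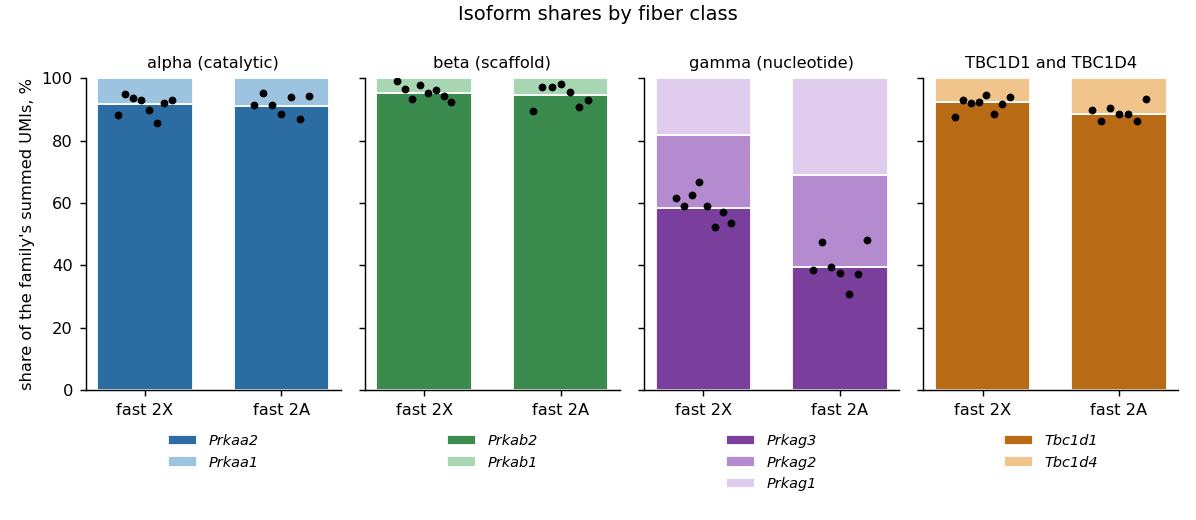
Stacked bars start at 0 and give the percent of each family's summed UMIs held by each gene in fast 2X and fast 2A, and black points are the share of the bottom gene on single plates with at least 3 cells of the class. The bottom gene changes little between classes for alpha (91.7% and 91.2%) and beta (95.3% and 94.6%), while for gamma Prkag3 is at 58.4% and 39.5%.

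Many FDB myofibers express both Myh1 and Myh2, so the members were also followed along the Myh2 share of Myh1 plus Myh2. This share is the measure behind the classes, and the values along it are a description. Prkag3 was at 129 CPM in the 48 cells with a Myh2 share under 20%, 114 CPM in 60 cells from 20% to 40%, 76.5 CPM in 18 cells from 40% to 60% and 46.2 CPM in 45 cells over 60%. Its share of gamma counts went from 60.3% through 55.6% and 50.8% to 37.9%, so the middle bins lay between the outer bins. The bins held all kept cells, with the slow cells in the 40% to 60% bin and the fast 2B cell in the 20% to 40% bin.

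Prkab2 followed a course of its own, at 202, 170, 120 and 122 CPM, with its low level already reached in the 40% to 60% bin. Prkag1 showed no ordered course (34.3, 44.2, 35.1 and 37.5 CPM). Tbc1d4 was at 21.2, 27.5, 26.8 and 31.6 CPM. The bins differed in depth as well, with median UMIs of 330043, 209096, 171238 and 193406, and the part of depth was not tested. Within fast 2X the Prkag3 level was alike from the shallowest to the deepest cells, at 113, 123 and 122 CPM. Other members were not flat with depth there: Prkaa2 rose (118, 131 and 157 CPM) and Prkag1 fell (51.4, 42.3 and 34.9 CPM).

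**Figure D4:**
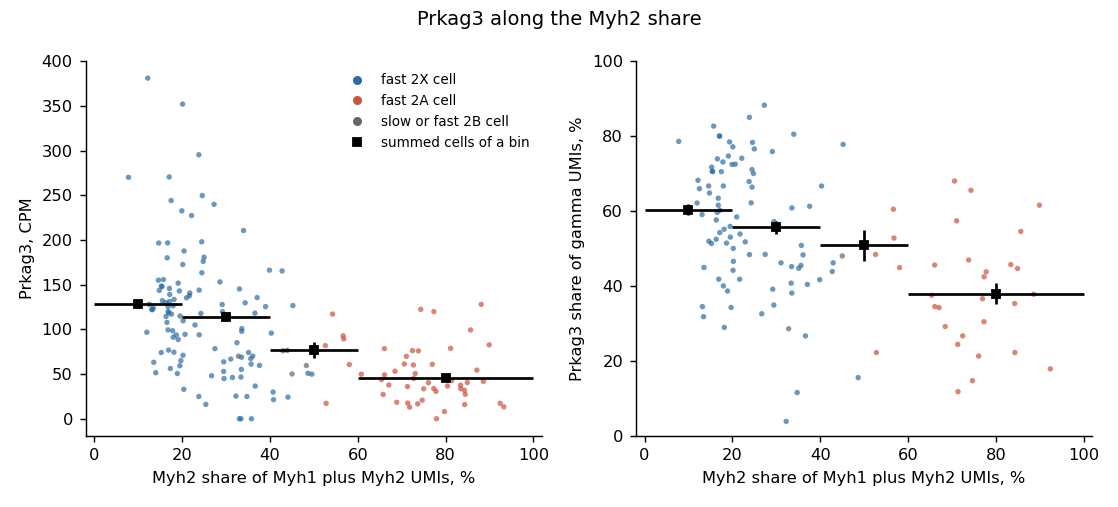
The left panel plots Prkag3 in CPM and the right panel its share of gamma UMIs in cells with at least 20 of them, both against the Myh2 share of Myh1 plus Myh2 UMIs in percent. Small points are cells colored by class, and black squares are the summed cells of a bin with 95% limits and the bin's width, which step down from 129 to 46.2 CPM and from 60.3% to 37.9%.

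The 2 slow myofibers and the fast 2B myofiber are single cells and are given as such. Prkag3 was at 50.1 CPM (32.1 to 74.6, 24 counts) in the deeper slow cell and 59.6 CPM (21.9 to 130, 6 counts) in the other, close to the fast 2A level. In the fast 2B cell it was at 70.0 CPM (41.5 to 111), and Prkag2 at 105 CPM was the largest gamma transcript there. Prkab1 had 0 counts in the fast 2B cell of 257020 UMIs, which allows up to 11.7 CPM at 3 counts and up to 14.4 CPM by the exact 95% limits. No class is described from these cells.

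Across the 171 kept cells, the genes whose CPM went most closely with each member were found by Spearman correlation among 11411 genes with a UMI in at least 50% of cells. These correlations share cells, depth and fiber class and are descriptions. For Prkag3 they were Pvalb (0.67), a calcium buffer of fast fibers, Actn3 (0.67), an actin crosslinker of fast fibers, and Mss51 (0.66). For Prkab2 they were Actn3 (0.61), Mss51 (0.58) and Atp1b2 (0.58), a subunit of the sodium-potassium pump, so that Actn3 and Mss51 stood in both lists.

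Tbc1d1 went most closely with Sox6 (0.51), a transcription factor of the fast fiber program, Fgf13 (0.50) and Kcnq5 (0.48), and Prkaa2 with Fgf13 (0.48), Ppp1r3a (0.46), a glycogen-targeting subunit of protein phosphatase, and Nedd4 (0.46). The closest genes of Prkag2 were Gm17106 (0.52), Reps2 (0.50) and Nckap5 (0.49). Those of Tbc1d4 were Sh3kbp1 (0.42), Gm21738 (0.37) and Lrrc8d (0.36). The low members gave weaker values, with Ergic1 (0.39), Vps13c (0.37) and Utp4 (0.36) for Prkaa1, D830024N08Rik (0.38), Frmpd1 (0.35) and Slc35f5 (0.34) for Prkab1, and Gm9522 (0.31), Gm9658 (0.31) and Alyref (0.30) for Prkag1.

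Among the members themselves the highest value was 0.42 between Prkab2 and Prkag3, and Prkaa2 reached 0.31 with Prkag3 and 0.28 with Prkab2. The lowest was -0.23 between Prkag3 and Tbc1d4. Tbc1d1 and Tbc1d4 were at -0.18, and Prkaa1 and Prkaa2 at -0.07. The Spearman correlation with the UMI count of the cell was 0.36 for Prkaa2, 0.21 for Prkab2, 0.20 for Prkag3 and 0.02 for Tbc1d4.

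Genes that act on AMPK were compared between the same classes, where 4.14% of all tested genes were at least 1.5-fold higher and 14.2% lower in fast 2A. Of 13 upstream regulators with enough counts, 1 was at least 1.5-fold higher and 1 lower in fast 2A, with a list median of -0.06 beside -0.12 for all genes. Sesn3, a sestrin that links stress to AMPK, was at 19.99 CPM in fast 2A and 12.4 CPM in fast 2X, 1.61-fold higher. Stradb, a pseudokinase partner of the AMPK-activating kinase LKB1, was at 23.3 and 35.1 CPM, just past the threshold at a log2 ratio of -0.59. The most abundant regulators were Cab39, the MO25 scaffold of LKB1 (159 and 131 CPM), and Fnip1, a folliculin partner that binds AMPK (105 and 94.4 CPM).

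Of 13 known AMPK substrates and targets, 2 were at least 1.5-fold higher in fast 2A and 0 lower, beside 4.14% and 14.2% of all tested genes, with a median of 0.01. Gys1, the muscle glycogen synthase, was at 327 CPM in fast 2A and 206 CPM in fast 2X (log2 0.66, 0.61 to 0.72). Pfkfb2, which makes the glycolytic activator fructose 2,6-bisphosphate, was at 4.70 and 2.35 CPM with few counts (limits 0.50 to 1.50). Gys1 and Hdac4 (174 and 203 CPM), a histone deacetylase, were the most abundant of the list.

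The AMPK-related kinases had 1 of 10 tested genes past the threshold: Nuak1 was at 65.8 CPM in fast 2A and 38.2 CPM in fast 2X, 1.72-fold higher (log2 0.78, 0.66 to 0.91). Of all tested genes 4.14% were called higher and 14.2% lower, and the list median was -0.08. The most abundant were Sik3 at 80.8 and 89.1 CPM and Mark3 at 59.96 and 60.5 CPM.

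In the insulin and GLUT4 traffic list, 0 of 23 genes were higher and 2 lower by 1.5-fold in fast 2A, beside 4.14% and 14.2% of all tested genes, with a median of -1.89e-05. Pak1, a kinase downstream of RAC1, was at 10.6 CPM in fast 2A and 31.4 CPM in fast 2X, 2.97-fold lower (log2 -1.57, -1.85 to -1.31). Rab8b, a paralog of the TBC1D4 target Rab8a, was at 3.86 and 8.17 CPM (log2 -1.08, -1.56 to -0.63). Slc2a4, the GLUT4 transporter itself, was at 286 and 242 CPM, and Hk2, the hexokinase that traps glucose in the fiber, at 610 and 650 CPM. The other tested genes of the list, the transporter included, differed by less than 1.5-fold.

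**Figure D5:**
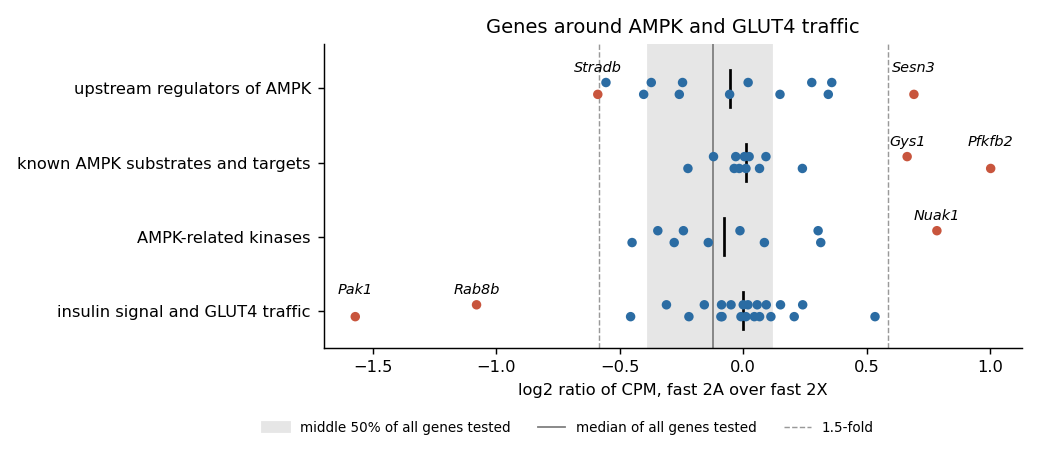
Each point is 1 tested gene of a list, placed by its log2 ratio of CPM in fast 2A over fast 2X, and red points with names are past 1.5-fold (dashed lines). Black bars are the list medians (-0.06, 0.01, -0.08 and -1.89e-05 from top to bottom), all inside the grey band that holds the middle 50% of all genes tested.

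The 592 cells left out had a summed mitochondrial share of 52.5% against 5.99% in the kept cells, so shares within families were compared before levels. Prkaa2 held 80.1% of alpha counts there (77.0 to 82.9) and Prkab2 89.1% of beta counts (87.1 to 90.9). In the gamma family Prkag2 held 49.2% of 1629 counts (46.7 to 51.6) and Prkag3 33.1%, against 24.5% and 55.3% in the kept cells. Prkag2 thus led gamma in the cells left out.

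That lead was present in both kinds of cells. In the 502 whole myofibers left out Prkag2 held 43.6% of gamma counts (40.6 to 46.5) and Prkag3 35.4%. In the 90 fragments left out it held 61.5% (57.1 to 65.7) and Prkag3 28.3%. A single fragment gave 28.4% of the fragments' Prkag2 counts, and without it the share was 55.0%. Endothelial markers summed to 309 CPM in the whole myofibers left out, 251 CPM in the fragments left out and 138 CPM in the whole myofibers kept. In the same order smooth muscle markers summed to 194, 194 and 50.02 CPM, with medians over cells of 0, 51.1 and 30.1 CPM. Blood markers summed to 158, 99.7 and 17.5 CPM. The totals behind these CPM include mitochondrial counts, which were 52.9%, 50.9% and 5.93% of them. The part of other cell types in the Prkag2 share was not tested.

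In level, 6 of 9 members were at least 1.5-fold higher in kept than in left-out cells, where 51.8% of 17054 genes were so, and 0 members were 1.5-fold lower, where 11.8% of genes were. The ratios ran from a log2 of -0.16 for Prkag2 to 1.88 for Prkaa2, beside a median of 0.64 over all genes. With mitochondrial counts taken out of the totals the median became -0.34, Prkaa2 0.89 and Prkag3 0.60. Prkag2 was then at -1.15, 48.9 CPM in kept and 108 CPM in left-out cells, and Prkab1 at -0.76 was also past 1.5-fold. On these totals 2 members, Prkaa2 and Prkag3, were past 1.5-fold upward, where 11.8% of all genes were, and 2 downward, where 42.3% were.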

How the data were processed

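Single myofibers were profiled by mcSCRB-seq, which tags each captured RNA with a cell barcode and a UMI. Per the methods and the labels, the authors mapped reads to mm10/GRCm38 with STAR 2.5.4b and counted UMIs per gene with featureCounts. The deposited table holds raw UMI counts per gene and cell, with 10 metadata rows of other values such as percentages. Cells with more than 5000 genes and under 20% mitochondrial counts were kept and summed within each fiber class, and CPM, log2 ratios and shares were computed in Python 3.11.15 with numpy 2.4.6 and scipy 1.17.1. Limits are exact 95% Poisson, conditional binomial and Clopper-Pearson limits, and cover counting error only. A gene was called at 1.5-fold with at least 100 summed counts. The kept cells had 28827 to 1.543e+06 UMIs each. The ratio script was tested on simulated sums. The i7 index rows of the table are called plates. Cells of 1 mouse are not replicates, so no p-value is given. Doublets were not called, since fibers were placed singly into wells.

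The members and gene lists were chosen with earlier results of these data known. Named genes were the members, list genes past 1.5-fold (at most 5 per list), the 2 most abundant of each list and the 3 genes most like each member. Alternatives covered scaling, cell weights, cell filters, class rules, lanes, plates and count minimums. The class rule without Myh8 left every class unchanged, because no kept cell was led by Myh8. Without the 3 fragments, without each plate and without the top cell were added after the data were seen.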

Additional observations from a re-analysis of the deposited data

How the results depend on the processing

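With 1 mouse, depth and cell number limit counting error only, and the low members (Prkaa1, Prkab1) and the single slow and fast 2B cells are imprecise. The fiber class ratios were not tested, because both classes are cells of 1 mouse. The classes share the same 2 lanes, and their values within lanes and plates are given instead. Over 23 alternatives the log2 ratio of fast 2A over fast 2X stayed below 0 for Prkag3 (-1.44 to -1.20), Prkab2 (-0.77 to -0.51), Prkag2 (-0.51 to -0.20), Prkaa2 (-0.41 to -0.25) and Tbc1d1 (-0.30 to -0.14), while Prkag1 (-0.17 to 0.17), Prkaa1 (-0.55 to 0.21), Prkab1 (-0.69 to 0.58) and Tbc1d4 (-0.02 to 0.48) took both signs. The cause of these shifts was not tested. Among the 23 alternatives, the class rule without Myh8 could not move a ratio. Leaving out each lane gave 90.6% to 92.7% for the Prkaa2 share, 94.3% to 96.1% for Prkab2, and 53.2% to 58.1% for Prkag3 in all kept cells and 55.3% to 62.9% in fast 2X. Per transcript length the shares were 86.3% for Prkaa2, 89.2% for Prkab2, and 49.9%, 53.3% and 33.6% for Prkag3 in all kept, fast 2X and fast 2A cells. As medians over cells they were 93.3% for Prkaa2, 97.7% for Prkab2, 51.3% for Prkag3 and 93% for Tbc1d1. Cells thinned to equal depth gave 94.2% for Prkab2, 52.0% for Prkag3 (55.5% in fast 2X) and 89.1% for Tbc1d1. With ribosomal RNA left out of the mitochondrial share, Prkag3 was at 54.0% (57.2% in fast 2X), and with a mitochondrial maximum of 10% Tbc1d1 was at 92.1%. Without plate 708, Prkab2 was at 94.6% and Prkag3 at 54.2% (57.0% in fast 2X). Without plate 710, Prkaa2 was at 92.3%, Prkag3 in fast 2X at 59.5% and Tbc1d1 at 92.1%. Without plate 712, Prkab2 was at 95.7% and Tbc1d1 at 91.1%. Genes at least 1.5-fold higher and lower in fast 2A numbered 650 and 2221. They were 4037 and 6399 with no count minimum, 225 and 634 with at least 500 counts, and 192 and 702 at 2-fold, and TMM factors gave 1008 higher. Members lower in fast 2A were 1 with TMM factors and 1 at 2-fold, both times Prkag3. With mitochondrial genes out of the totals, 2 members were higher and 2 lower in kept than in left-out cells, and the Tbc1d4 log2 ratio turned from 0.66 to -0.33.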
